A study of Mus musculus with 12 samples.

Results

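The genes described here are 41 genes of the cell cycle and of DNA replication, followed across hepatocytes, macrophages and sinusoidal endothelial cells (SEC) of the mouse liver with and without the carcinogen diethylnitrosamine (DEN). The list of symbols was given, and each gene is represented by its brightest probe, averaged over the 12 arrays. They fall into 8 genes of G1 and S-phase entry, 13 replication genes and 20 mitotic genes. Of the 41 genes, 39 had an annotated probe among the 19053 genes with one in the series, and 35 were above background in at least 1 group and were tested among 12473 genes. The probes of Ccne2, Ccna2, Ccnb2 and Bub1 were not above background on both arrays of any group, and no probe was annotated to Mki67 or Ccnb1 in the table used here. The tested members were 7 of G1 and S entry, all 13 of replication and 15 of mitosis.

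All mice were males of strain C57Bl/6, and the sample titles mark every group WT. In the 3 DEN groups the mice had been given 25 mg/kg DEN into the peritoneum at postnatal day 25, with 9 months of follow-up, and the 3 untreated groups were age-matched. There were 6 groups of 2 arrays. The RNA of DEN-treated mice came from pools of 3 to 4 animals, and the labels do not say that replicate arrays are of different animals, so p-values reflect array-to-array spread that may be purely technical. DEN is activated in hepatocytes and causes liver tumours. The sources used here do not describe how the cells were purified.

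Cells enter the cycle when D-type cyclins switch on Cdk4 and its partner kinase, which inactivate the retinoblastoma protein and release E2F factors. E2F factors then drive the genes of DNA replication, among them the Mcm helicase, the sliding clamp Pcna and the enzymes that make deoxynucleotides. A later wave of genes, driven by the MYB and FOXM1 branch of the DREAM system, builds the spindle, the kinetochore and the machinery that separates chromosomes. Adult hepatocytes are mostly quiescent and return to the cycle after injury, and they also become polyploid, copying DNA without dividing.

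Levels are deposited log2 values, each array's own, and a change is the DEN group's mean minus the untreated group's mean on that scale, ± SE, with n = 2 arrays per group. A gene was called when the adjusted p of limma was under 0.05. Per array, 14314 to 21552 probes exceeded background, a threshold between 7.42 and 7.57 taken from odorant and pheromone receptor probes, and a level near it bounds a change from below. DEN changes had a median SE of 0.07, which pools all 6 groups, while replicates differed with an SD of 0.14 in untreated hepatocytes, 0.18 in DEN hepatocytes and 0.08 to 0.10 elsewhere. All 10 hepatocyte markers were above background in untreated hepatocytes, 8 of 9 Kupffer cell markers in untreated macrophages and 9 of 9 SEC markers in untreated SEC. Kupffer cell markers were also high in untreated SEC, with a summed linear level of 48389 to 48434 against 109155 to 110624 in untreated macrophages. In DEN macrophages that sum was 7382 to 7597, so the resident macrophage's markers were low there.

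Many promoters of the members carried the words that the literature ties to the replication and mitotic waves, and 7 are compared here. All 7 genes were called higher in hepatocytes after DEN except Tyms, which was called lower. RefSeq promoters (250 bases before to 50 after the start, GRCm38.p6) were found for 32 of the 41 members, 35 promoters in all; Ccnd1, Ccnd2, Ccne2, Mcm4, Gmnn, Ccna2, Aurkb, Tpx2 and Foxm1 were not matched. The searched words, on both strands, were TTTCGCGC, TTTGGCGC, TTTCCCGC and TTTGCCGC for E2F, TTTGAA and TTTAAA for the cell cycle homology region (CHR), and CCAAT. The 100 bases before each start are written 5′ to 3′ on the gene's strand, with the matches in capitals. Mcm6, at chr1:128359706-128359805 on the minus strand, is a helicase subunit and holds an E2F word. Mcm5, another helicase subunit, is at chr8:75109409-75109508 on the plus strand. Tyms, thymidylate synthase, is at chr5:30073626-30073725 on the minus strand. Cdk1, the mitotic kinase, is at chr10:69352913-69353012 on the minus strand. Cdc20, an activator of the anaphase-promoting complex, is at chr4:118437344-118437443 on the minus strand. Top2a, the topoisomerase that untangles chromosomes, is at chr11:99024190-99024289 on the minus strand. Cenpa, the centromeric histone, is at chr5:30666786-30666885 on the plus strand.
Mcm6: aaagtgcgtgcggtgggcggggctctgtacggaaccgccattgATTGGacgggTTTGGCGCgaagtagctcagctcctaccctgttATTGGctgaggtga
Mcm5: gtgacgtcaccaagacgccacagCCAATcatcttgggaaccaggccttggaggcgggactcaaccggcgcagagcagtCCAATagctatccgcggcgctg
Tyms: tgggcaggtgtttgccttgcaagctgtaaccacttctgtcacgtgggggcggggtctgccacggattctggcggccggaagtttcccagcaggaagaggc
Cdk1: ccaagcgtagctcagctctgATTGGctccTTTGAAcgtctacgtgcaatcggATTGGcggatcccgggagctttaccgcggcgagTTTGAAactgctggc
Cdc20: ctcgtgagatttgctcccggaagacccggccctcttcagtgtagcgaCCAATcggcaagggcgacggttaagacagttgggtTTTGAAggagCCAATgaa
Top2a: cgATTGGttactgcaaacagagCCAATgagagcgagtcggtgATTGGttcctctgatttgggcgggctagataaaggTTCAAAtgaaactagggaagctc
Cenpa: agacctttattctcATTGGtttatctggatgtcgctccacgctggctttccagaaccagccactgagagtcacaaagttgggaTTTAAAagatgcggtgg
The printed stretches of Cdk1, Cdc20, Top2a and Cenpa hold a CHR word on one strand or the other together with CCAAT. That of Mcm6 holds an E2F word with CCAAT, that of Mcm5 CCAAT alone and that of Tyms none of the words. The whole window of Mcm5 also holds 2 E2F words and 1 CHR word. Mcm6 alone among the members' promoters holds an E2F word in this stretch. Nusap1, Birc5, Bub1b and Cdca8, also called higher in hepatocytes, hold no CHR word in the same 100 bases. In their whole windows Birc5, Bub1b and Cdca8 hold 1 each and Nusap1 none of the words.

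Over the whole windows, E2F words were in 38.5% of the 13 replication promoters, 6.25% of the 16 mitotic promoters and 2.26% of all 32851 promoters in the table. CHR words were in 87.5% of the mitotic promoters, 38.5% of the replication promoters, 16.7% of the 6 promoters of G1 and S entry and 27.6% of all promoters. CCAAT was in 87.5% of the mitotic and 84.6% of the replication promoters, 33.3% of those of G1 and S entry and 37.4% of all. Promoters of both waves thus shared CCAAT and differed in the share with a CHR word, as the plot of motif shares shows. A match describes letters in a window and is not a measured binding site.

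**Figure D1:**
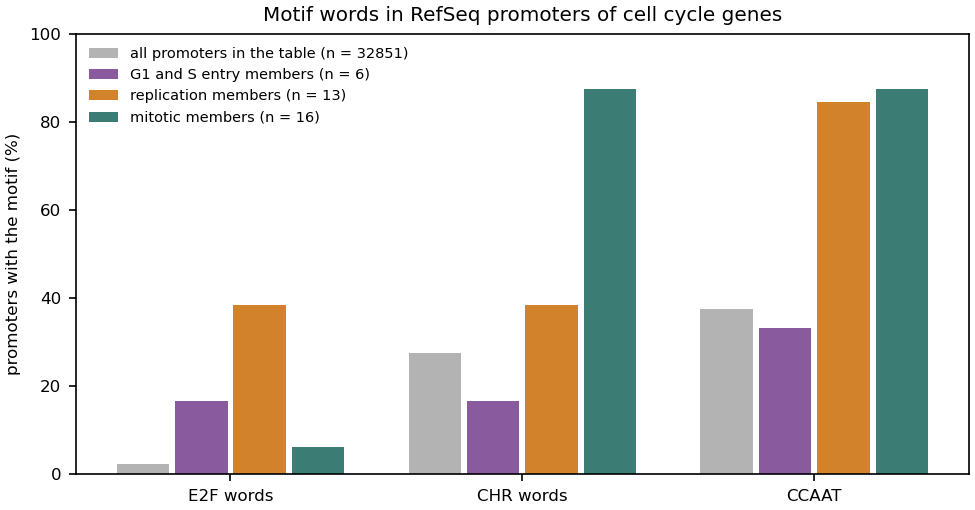
Share of RefSeq promoters (GRCm38.p6, 300-base windows) that hold at least 1 E2F, CHR or CCAAT word on either strand, in percent, for all 32851 promoters and for the members by role. The mitotic bar for CHR stands at 87.5% against 27.6% for all promoters.

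Untreated hepatocytes were the lowest group for 24 of the 35 tested members, and DEN hepatocytes for 9. Of members with a probe, 4 of 13 for replication and 11 of 18 for mitosis were below background on both untreated hepatocyte arrays. Those that passed the filter only through other cell types were bound to be low in hepatocytes. Where both hepatocyte groups were below background, their order carries no information. The lowest group was not counted over all genes. Against untreated macrophages 30 members were lower in untreated hepatocytes and 1, Tyms, was higher, so 88.6% were called where 64.4% of all genes were. The median difference was -0.72, against -0.04 over all genes, and 10 members were lower by at least 2-fold, a class that held 11.5% of all genes. Of all genes 36.5% were lower. Tyms was 0.17 ± 0.06 higher in the untreated hepatocytes, and this call was lost with background subtraction, with cyclic loess and with the mean of all probes. Against untreated SEC 24 members were lower and 2, Tyms and Mcm6, were higher, 74.3% called against a background of 67.2%, with 38.9% of all genes lower. With background subtraction 23 were lower and 3 higher there, while the share of higher genes among all called genes went from 42.1% to 52.4%.

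The D-type cyclins gave the widest gaps between untreated cell types. Ccnd2 was lower in hepatocytes than in SEC by a log2 difference of -3.67 ± 0.09 and Ccnd1 by -3.54 ± 0.06. The helicase genes Mcm4, Mcm5 and Mcm6 were lower in hepatocytes than in macrophages, with differences of -1.91, -1.90 and -2.0. Cenpa was lower in hepatocytes than in SEC by -2.62 ± 0.07. Between untreated macrophages and untreated SEC 14 members were higher in macrophages and 3, Ccnd1, Ccnd2 and Cenpa, were higher in SEC, 48.6% called against 45.3% of all genes, 23.1% of which were higher in macrophages. Replication members made up 9 of the 14, among them Mcm6, whose untreated SEC arrays were at background. Without the first untreated SEC array 11 members were called in this comparison.

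The highest level was in DEN macrophages for 15 of the 35 members, in untreated macrophages for 9, in untreated SEC for 5, in DEN hepatocytes for 4 and in DEN SEC for 2. The highest group was not counted over all genes either. The 4 genes with the highest mean in DEN hepatocytes were Nusap1, Aurka, Cdc20 and Foxm1. For Aurka the arrays of DEN hepatocytes and DEN macrophages overlapped.

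**Figure D2:**
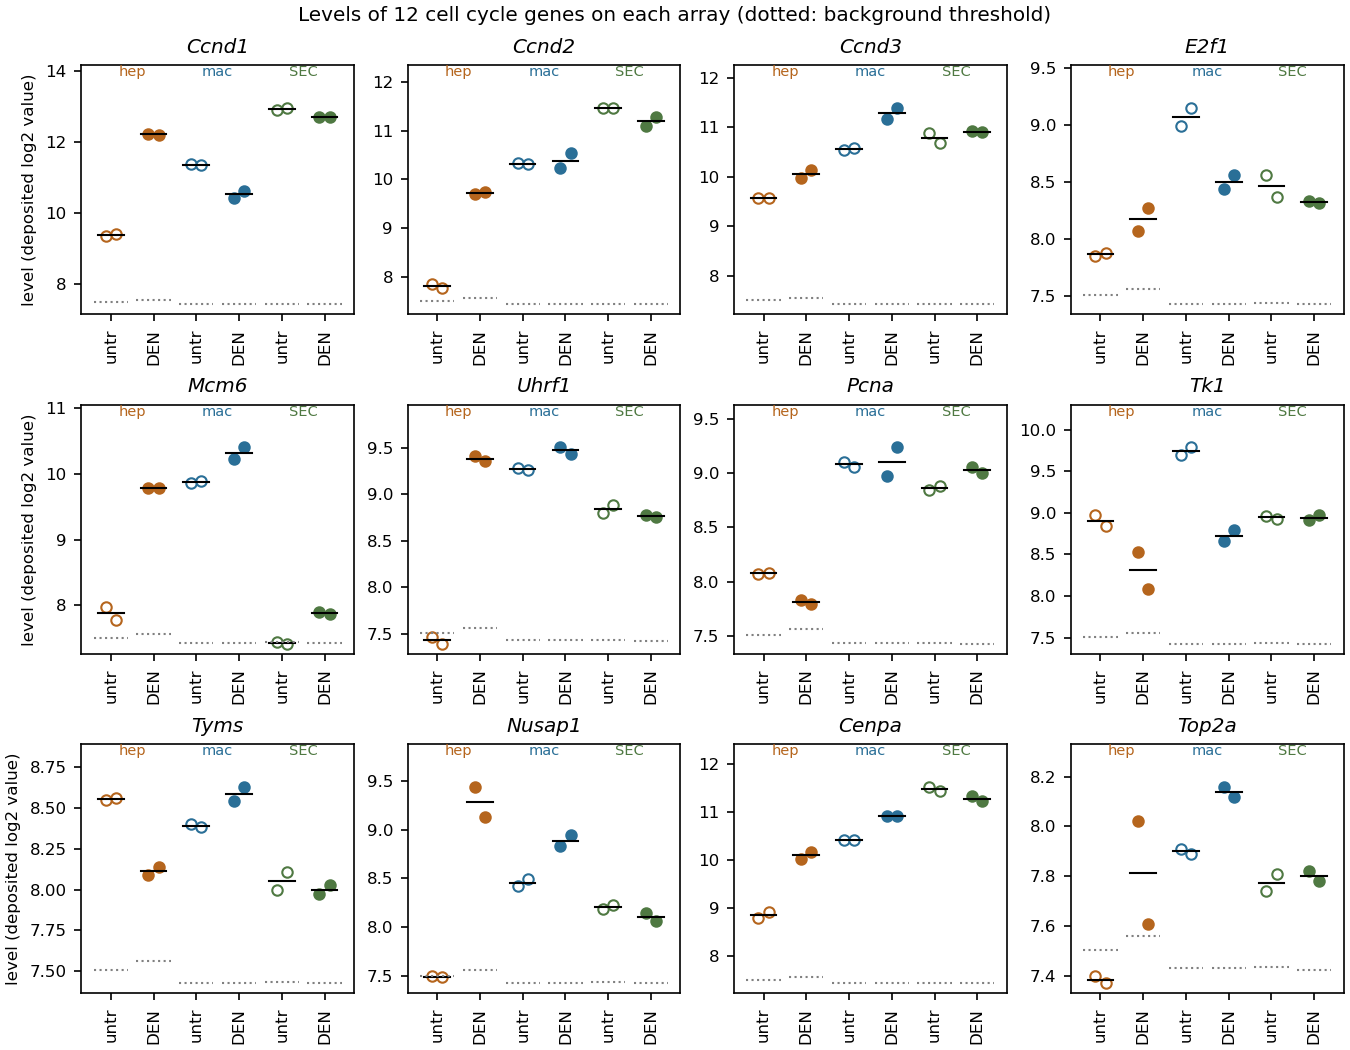
Deposited log2 level of 12 members on each of the 12 arrays (open circles untreated, filled circles DEN, black bars group means of 2 arrays, dotted lines the background threshold of the group) in hepatocytes (hep), macrophages (mac) and SEC. Ccnd1 moved from 9.35 and 9.41 to 12.23 and 12.20 in hepatocytes and from 11.37 and 11.34 to 10.43 and 10.61 in macrophages.

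In hepatocytes after DEN 19 members were higher and 6 lower, and 10 were not called. Cyclins D1 and D2, part of the Mcm helicase, the methylation maintenance factor Uhrf1 and 9 mitotic genes, among them Nusap1 and Cenpa, rose, while Tk1, Tyms and Pcna, which serve DNA synthesis, fell. The 25 calls were 71.4% of the members, against 67.6% of all genes, with 31.7% of all genes higher and 36.0% lower. Higher by at least 2-fold were 8 members, a class that held 10.2% of all genes, and none was lower by 2-fold, against 8.69% of all genes; by an adjusted p alone 6 were lower. The median change was 0.30 against -0.02 over all genes, and the arrays of the groups did not overlap for 28 of 35 members, against 78.6% of all genes. With background subtraction 22 members were higher and 4 lower, while the share of higher genes among all called genes went from 46.8% to 57.1% and the median of all genes to 0.29.

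Among the genes of G1 and S entry 5 of 7 rose and Cdk4 fell, where 31.7% of all genes were higher and 36.0% lower. Ccnd1, the cyclin that couples growth signals to the cycle, read 9.35 and 9.41 in untreated and 12.23 and 12.20 in DEN hepatocytes. Both DEN arrays lay far above both untreated arrays, a change of 2.84 ± 0.06 or 7.16-fold (adjusted p = 1.48e-11). Ccnd2, cyclin D2, read 7.85 and 7.76 untreated and 9.71 and 9.74 after DEN, a change of 1.92 ± 0.09. Its untreated arrays were close to background and its DEN arrays below both of those in macrophages.

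Ccnd3, the cyclin best known from blood cells, read 9.58 and 9.57 untreated and 9.98 and 10.14 after DEN. The groups did not overlap and the change was 0.48 ± 0.09, but another probe of Ccnd3 fell by 0.49 and the mean of its probes changed by -0.05 (adjusted p = 0.458). Cdk2, the kinase partner of cyclins E and A, rose by 0.55 ± 0.07 on the probe used, while another probe fell by 0.17 and the mean of its probes was not called. E2f1, the founding E2F activator, read 7.85 and 7.88 untreated and 8.07 and 8.27 after DEN, higher on both DEN arrays. Its change of 0.31 ± 0.09 was not called without the second DEN array (0.21). Cdk4, the kinase of the D cyclins, read 8.70 and 8.67 untreated and 8.60 and 8.27 after DEN. Its change of -0.25 ± 0.10 rested on the second DEN array, without which it was -0.08. Ccne1, cyclin E1, was below background in both groups.

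Of 13 replication members in hepatocytes 5 were higher, 5 lower and 3 not called, which lies near the shares of all genes higher (31.7%) and lower (36.0%). The median of their changes was -0.03. Mcm6 read 7.97 and 7.78 untreated and 9.79 and 9.79 after DEN, without overlap, a change of 1.91 ± 0.07. Its other probes changed by 1.02, 0.40 and 0.00. Of its helicase partners, Mcm5 rose by 1.20 ± 0.07, Mcm4 by 1.07 ± 0.07 and Mcm2 at least 1.16-fold, from below background. Mcm3 was below background in both groups, and Mcm7 changed by -0.21 ± 0.08 in a call that was lost without either untreated array (-0.19 and -0.22) or without the second DEN array (-0.12). Mcm2, Mcm4, Mcm5 and Mcm6 were thus called higher in these hepatocytes, while Mcm3 gave no measurable direction. The 1 other probe of Mcm7 above background was also called lower, but the call on the probe used was unstable.

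Uhrf1, which recruits the maintenance methyltransferase to newly copied DNA, read 7.47 and 7.39 untreated, both below background, and 9.41 and 9.36 after DEN. That is at least 3.68-fold higher (adjusted p = 8.24e-11), and it put DEN hepatocytes between untreated and DEN macrophages. Pcna read 8.07 and 8.08 untreated and 7.83 and 7.79 after DEN. Both DEN arrays were lower, and the change of -0.26 ± 0.08 was -0.14 and not called with cyclic loess.

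Tk1, thymidine kinase, which recycles thymidine for DNA synthesis, read 8.97 and 8.84 untreated and 8.53 and 8.09 after DEN. The DEN arrays differed by more than the untreated arrays did and both lay lower, a change of -0.60 ± 0.12. Tyms, which makes thymidylate, read 8.55 and 8.56 untreated and 8.09 and 8.14 after DEN, a change of -0.44 ± 0.06 without overlap. The 1 other probe of Tyms above background was not called. Rrm2, the regulated subunit of ribonucleotide reductase, read 7.62 and 7.44 untreated and 7.40 and 7.36 after DEN, near or below background throughout. Its change of -0.15 ± 0.06 was 0.06 with background subtraction, and without the first untreated array it was -0.06 and not called. Rrm1, the larger subunit, changed by -0.11 ± 0.10. Gmnn, geminin, which blocks a second round of origin licensing, read 7.29 and 7.39 untreated and 7.39 and 7.43 after DEN, below background on all 4 arrays.

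Of 15 mitotic members in hepatocytes limma called 9 higher and none lower, with 6 not called, and at an unadjusted p under 0.05 also 9 were higher and 0 lower. That is 60% called, against 67.6% of all genes, 31.7% higher and 36.0% lower. Their median change was 0.31. Of the 18 mitotic members with a probe, 11 were below background on both untreated arrays and had little room to fall. Among these 11, Ccna2, Ccnb2 and Bub1 were not tested. The absence of lower calls says little about the genes below background. Nusap1, which bundles spindle microtubules, read 7.5 and 7.49 untreated and 9.44 and 9.13 after DEN. The untreated arrays were below background and the DEN arrays above every array of the other cell types, at least 3.43-fold higher. Cenpa read 8.78 and 8.92 untreated and 10.02 and 10.16 after DEN, a change of 1.24 ± 0.07. On this probe it stayed below both macrophage groups and both SEC groups, and its 1 other probe was not called.

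Birc5, survivin, a subunit of the chromosomal passenger complex, read 7.64 and 7.57 untreated and 8.24 and 8.51 after DEN, a change of 0.77 ± 0.08. Cdc20 rose by 0.76 ± 0.05 and Bub1b, a spindle checkpoint kinase, by 0.65 ± 0.08. Cdca8, borealin, another passenger subunit, was at least 1.48-fold higher. The DEN arrays of these 4 genes were above all their untreated arrays. Both other probes of Birc5 and 2 of 3 of Cdc20 were also called higher, while the other probe of Bub1b and that of Cdca8 were not called.

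Top2a read 7.40 and 7.37 untreated and 8.02 and 7.61 after DEN, at least 1.24-fold higher. Its DEN arrays were further apart than the pairs of the other groups, and the lower one was just above background. Cdk1 read 7.40 and 7.46 untreated and 7.91 and 7.54 after DEN, at least 1.17-fold higher, with the second DEN array at background. Its call was lost without either untreated array (0.27 and 0.33) and without the first DEN array (0.11). The 1 other probe of Cdk1 above background and both other probes of Top2a were also called higher. Foxm1, a factor that drives the mitotic wave, was at least 1.21-fold higher, and its other probe was not called. Aurka, Aurkb and Plk1, kinases of spindle and chromosomes, changed by 0.18 ± 0.10, 0.14 ± 0.08 and 0.11 ± 0.08 without a call. The spindle motor gene Kif11, the spindle factor gene Tpx2 and the ubiquitin-conjugating enzyme gene Ube2c were below background in both groups.

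**Figure D3:**
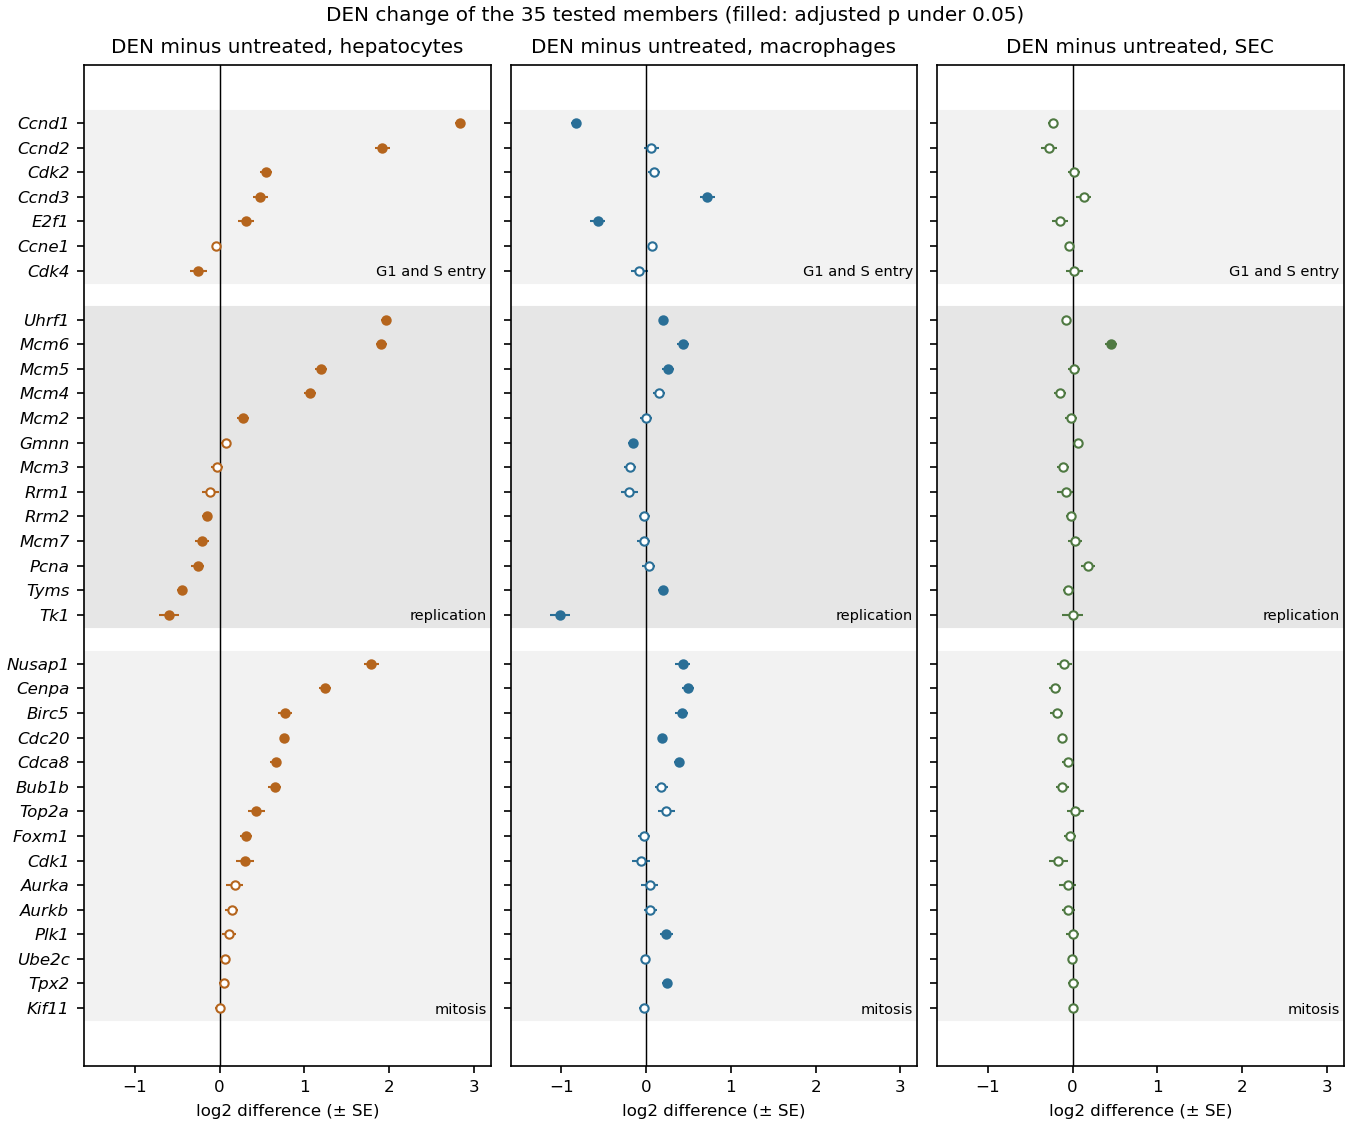
Change of each tested member after DEN (log2 difference of group means, bars ± SE, 2 arrays per group, filled where the adjusted p was under 0.05) in hepatocytes, macrophages and SEC, ordered within each role by the change in hepatocytes. In hepatocytes the replication members run from 1.96 for Uhrf1 to -0.60 for Tk1, while no mitotic member was called lower. Of 18 mitotic members with a probe, 11 were below background on both untreated hepatocyte arrays, which leaves little room for a fall. Among these 11, Ccna2, Ccnb2 and Bub1 were not tested and are not shown.

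Other cell types' markers moved with these changes. The summed linear level of the erythroid list went from 3178 to 3485 in untreated to 117428 to 119403 in DEN hepatocytes, with 6 of its 7 tested genes higher and Klf1 below background after DEN. The neutrophil list, 9 of whose 11 genes were below background in untreated hepatocytes, went from 1929 to 1939 to 35465 to 35483, with 10 genes higher. Monocyte markers went from 3624 to 3811 to 31548 to 32647 (6 of 7 higher) and T and NK cell markers from 1011 to 1013 to 5385 to 5712 (5 of 6 higher). Stellate cell markers went from 3377 to 3890 to 13243 to 13509 (7 of 9 higher), and cholangiocyte markers from 1866 to 1987 to 7517 to 7859 (6 of 6 higher). Kupffer cell markers went from 3043 to 3177 to 9329 to 9996 (5 of 8 higher). Within that list Clec4f was called lower, and Folr2 and Cd163 were not called. SEC markers went from 4644 to 4657 to 7674 to 7988 (7 of 9 higher). B cell markers went from 819 to 859 to 1722 to 1896 (4 of 5 higher). The hepatocyte list itself went from 142139 to 144011 down to 86046 to 87160, with 8 of 10 genes lower. The part of these cells in the cycle genes' changes was not tested, and in bulk samples fewer cells of a type and less RNA per cell cannot be told apart.

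In macrophages after DEN 12 members were higher and 4 lower, 45.7% of the members against 42.9% of all genes, of which 18.6% were higher and 24.3% lower. The mitotic genes were again called higher or not at all, 7 and 8 of 15 (9 higher and 0 lower at an unadjusted p under 0.05), while Ccnd1, E2f1 and Tk1 fell. No member rose by 2-fold and Tk1 fell by 2-fold, against 2.88% and 3.72% of all genes. The median change was 0.06 against -0.02 over all genes, and the arrays did not overlap for 26 members, against 74.7% of all genes.

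Ccnd1 read 11.37 and 11.34 in untreated and 10.43 and 10.61 in DEN macrophages, a change of -0.83 ± 0.06 (adjusted p = 7.5e-07). Ccnd3 read 10.55 and 10.58 untreated and 11.17 and 11.40 after DEN, a change of 0.72 ± 0.09. These cyclins moved in opposite directions without overlap. Ccnd2 read 10.34 and 10.31 untreated and 10.23 and 10.54 after DEN, so the groups overlapped. E2f1 read 8.99 and 9.15 untreated and 8.44 and 8.56 after DEN, a change of -0.57 ± 0.09. Cdk4 read 9.16 and 8.92 untreated and 8.95 and 8.98 after DEN, with overlap. Cdk2 and Ccne1 changed by 0.09 ± 0.07 and 0.07 ± 0.05 and were not called.

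Tk1 read 9.69 and 9.79 untreated and 8.66 and 8.79 after DEN. Both DEN arrays were far lower, a change of -1.02 ± 0.12 (adjusted p = 2.86e-05), and its 3 other probes changed by -0.35, -0.17 and -0.10. Mcm6 read 9.87 and 9.89 untreated and 10.23 and 10.41 after DEN, a change of 0.44 ± 0.07. Mcm5 changed by 0.26 ± 0.07, a call lost without any 1 of the 4 arrays (0.25 to 0.28). Mcm2, Mcm3, Mcm4 and Mcm7 changed by 0.00, -0.19, 0.15 and -0.03 and were not called.

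Uhrf1 read 9.29 and 9.26 untreated and 9.51 and 9.44 after DEN, and Tyms 8.40 and 8.38 untreated and 8.54 and 8.63 after DEN. Both changed by 0.20, without overlap. The call of Uhrf1 was lost without the second untreated (0.18) or the first DEN array (0.16), and that of Tyms without the second untreated (0.19) or the second DEN array (0.15). Gmnn read 7.65 and 7.68 untreated and 7.46 and 7.55 after DEN, a change of -0.16 ± 0.05. Its call was lost without either untreated array (-0.17 and -0.14) or the first DEN array (-0.11). Pcna read 9.10 and 9.06 untreated and 8.97 and 9.24 after DEN, with overlap. Rrm2 read 7.59 and 7.57 untreated and 7.56 and 7.57 after DEN, and Rrm1 changed by -0.20 ± 0.10, neither of them called.

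Cenpa read 10.41 and 10.41 untreated and 10.90 and 10.90 after DEN, a change of 0.49 ± 0.07, and its other probe was not called. Nusap1 read 8.42 and 8.49 untreated and 8.83 and 8.94 after DEN, a change of 0.43 ± 0.09. Birc5 read 8.38 and 8.26 untreated and 8.76 and 8.73 after DEN, a change of 0.42 ± 0.08. For each of the 3 genes both DEN arrays were above both untreated arrays. Cdca8 rose by 0.39 ± 0.06, Tpx2 by 0.25 ± 0.06, Plk1 by 0.24 ± 0.08 and Cdc20 by 0.19 ± 0.05. Both other probes of Birc5 were also called higher, while no other probe of Cdca8 or Cdc20 was called. The call of Plk1 was lost without any 1 of the 4 arrays (0.21 to 0.27) and that of Cdc20 without the first untreated array (0.17).

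Top2a read 7.91 and 7.89 untreated and 8.16 and 8.12 after DEN, higher on both DEN arrays but with an adjusted p of 0.0871 for its change of 0.24 ± 0.10. Cdk1 read 8.37 and 8.54 untreated and 8.46 and 8.34 after DEN, with overlap. Bub1b changed by 0.18 ± 0.08, and Aurka, Aurkb, Kif11, Ube2c and Foxm1 by 0.04, 0.05, -0.03, -0.01 and -0.03, none of them called. Beside these changes the summed level of Kupffer cell markers went from 109155 to 110624 down to 7382 to 7597, with 8 of 8 tested genes lower. Neutrophil markers went from 8915 to 8974 to 51814 to 64314 (11 of 11 higher), T and NK cell markers from 13614 to 14068 to 45078 to 46393 (5 of 6 higher) and B cell markers from 2850 to 2925 to 8028 to 8138 (5 of 5 higher). Monocyte markers went from 27425 to 28211 to 37215 to 38868 (5 of 7 higher) and erythroid markers from 21669 to 21961 to 34504 to 39138 (5 of 7 higher). Stellate cell markers went from 10693 to 11352 down to 1986 to 2068 (5 of 9 lower, 1 higher), with Dcn changed by -4.24 and Acta2 by 0.90. SEC markers went from 14828 to 15249 down to 7936 to 8012 (5 of 9 lower, 1 higher) and hepatocyte markers from 6430 to 6631 down to 3682 to 4225 (4 of 10 lower). The part of these cells was not tested.

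In SEC 1 of the 35 members was called after DEN, Mcm6, or 2.86% against 3.55% of all genes. Mcm6 read 7.44 and 7.41 in untreated SEC, at background, and 7.89 and 7.86 in DEN SEC, a change of 0.45 ± 0.07 (adjusted p = 0.00393). Its 3 other probes, among them 1 with a mean of 8.32 in untreated SEC, changed by 0.05, -0.01 and 0.01, and the mean of its probes changed by 0.12 (adjusted p = 0.30). The changes of all 35 members ran from -0.28 to 0.45 with a median of -0.04, against -0.02 over all genes. The arrays did not overlap for 20 members, against 52.3% of all genes.

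Other members in SEC changed less than the test could call. Ccnd1 read 12.88 and 12.96 untreated and 12.69 and 12.69 after DEN, lower on both DEN arrays (-0.23 ± 0.06, adjusted p = 0.0764, and 0.030 in a fit on the SEC arrays alone). Ccnd2 read 11.48 and 11.48 untreated and 11.11 and 11.29 after DEN, also lower on both (-0.28 ± 0.09, adjusted p = 0.169). Ccnd3 read 10.88 and 10.68 untreated and 10.92 and 10.90 after DEN, higher on both (0.13 ± 0.09). Cyclin D1 and D2 were at their highest of all 6 groups in untreated SEC.

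E2f1 read 8.56 and 8.37 untreated and 8.33 and 8.31 after DEN, and Cdk4 9.31 and 9.26 untreated and 9.27 and 9.33 after DEN. Pcna read 8.84 and 8.88 untreated and 9.06 and 9.00 after DEN, Uhrf1 8.80 and 8.89 untreated and 8.78 and 8.76 after DEN. Tk1 read 8.96 and 8.93 untreated and 8.91 and 8.97 after DEN, and Tyms 8.0 and 8.11 untreated and 7.97 and 8.03 after DEN. The groups overlapped for Cdk4, Tk1 and Tyms and not for the other 3. Rrm2 stayed between 7.52 and 7.57 and Gmnn between 7.51 and 7.58 on the 4 SEC arrays.

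Among the mitotic genes Nusap1 read 8.19 and 8.23 untreated and 8.15 and 8.06 after DEN, and Cenpa 11.52 and 11.43 untreated and 11.32 and 11.21 after DEN. Birc5 read 8.04 and 8.13 untreated and 7.89 and 7.89 after DEN, and Cdk1 8.24 and 8.36 untreated and 8.10 and 8.16 after DEN. All 4 were lower on both DEN arrays without a call, with changes of -0.10, -0.21, -0.19 and -0.17. Top2a read 7.74 and 7.81 untreated and 7.82 and 7.78 after DEN, with overlap. In SEC the marker sums also moved: erythroid markers went from 3071 to 3129 to 63957 to 66087 (5 of 7 higher) and neutrophil markers from 3461 to 3470 to 12200 to 12618 (8 of 11 higher). Hepatocyte markers went from 3347 to 3442 to 17419 to 17882 (4 of 10 higher), with Apoa1 changed by 3.65 and Ttr by 2.51, and Kupffer cell markers from 48389 to 48434 down to 40438 to 41749 (1 of 8 lower). SEC markers read 92927 to 93041 untreated and 92964 to 94153 after DEN (1 of 9 higher). The part of these cells was not tested.

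The replication and mitotic members were set against each other by the medians of their changes. In hepatocytes the replication median was lower by 0.34 (-0.03 against 0.31), in macrophages by 0.19 (0.00 against 0.19), and in SEC it was higher by 0.04 (-0.02 against -0.06). The hepatocyte difference kept its sign in every setting tried and was -1.11 with background subtraction, -0.51 without the second DEN hepatocyte array and -0.26 without the first. The macrophage difference was -0.48 with background subtraction, -0.11 without the filter on dim probes and -0.12 with the mean of all probes or without the first untreated macrophage array. The lists of other replication and other mitotic genes, described below, did not show such a gap. Their median changes were 0.04 and 0.05 in hepatocytes and 0.01 and 0.04 in macrophages. The differences above thus hold for the members only. In untreated hepatocytes 11 of 18 mitotic members with a probe were below background on both arrays, against 4 of 13 replication members. Among those 11, Ccna2, Ccnb2 and Bub1 were not tested and do not enter the medians. These medians carry no test, and members at background could rise but hardly fall.

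**Figure D4:**
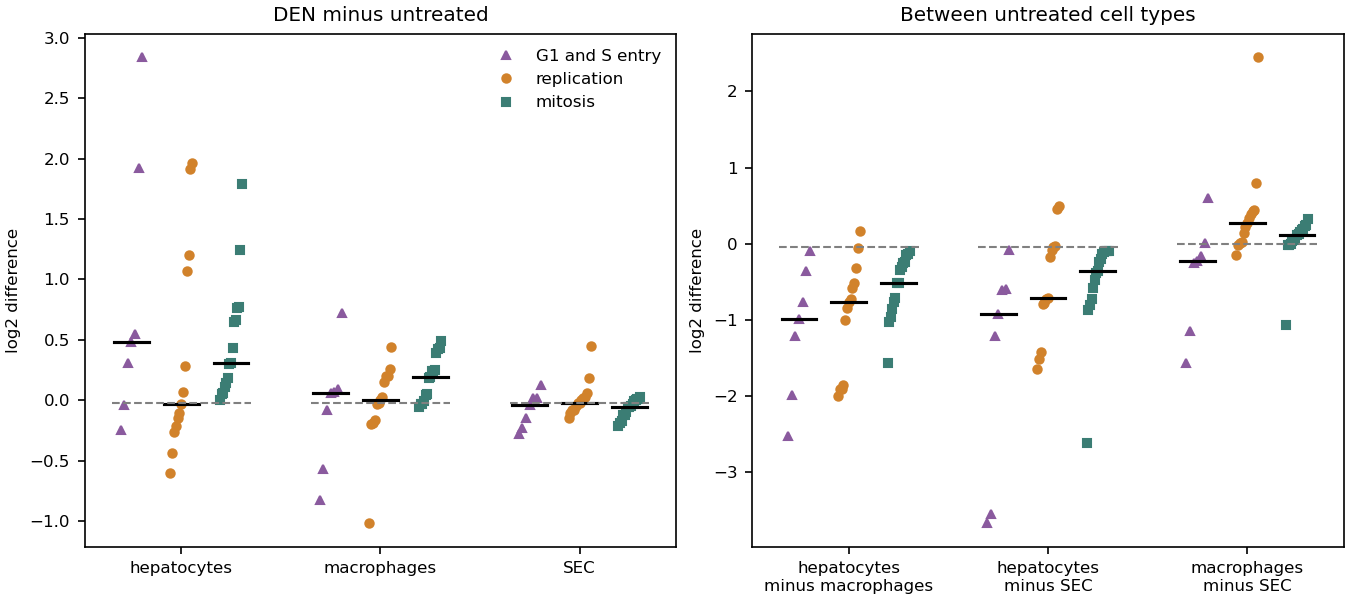
Log2 differences of the tested members by role (triangles G1 and S entry, circles replication, squares mitosis), after DEN in each cell type and between untreated cell types; black bars are medians of the role and dashed lines the median of all 12473 genes. The mitotic median after DEN is 0.31 in hepatocytes, 0.19 in macrophages and -0.06 in SEC.

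Across the 3 cell types the members fell into 10 patterns of calls. Higher in hepatocytes and in macrophages but not called in SEC were 8 members, and higher in hepatocytes alone were also 8. Lower in hepatocytes alone were 4, and 7 were called nowhere. Ccnd1 and E2f1 rose in hepatocytes and fell in macrophages, Tyms fell in hepatocytes and rose in macrophages, and Tk1 fell in both. Mcm6 was called higher in all 3 cell types. A call in one cell type and none in another does not show a difference, which was tested as an interaction.

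The change in hepatocytes differed from that in macrophages for 20 members, 18 with the larger rise or smaller fall in hepatocytes, where 63.0% of all genes were called and 30.7% upward. At least 2-fold and upward were 5, a class with 11.3% of all genes. Ccnd1 gave the widest gap, 3.67 ± 0.09, followed by Ccnd2 at 1.86 ± 0.13 and Uhrf1 at 1.77 ± 0.07. Pcna (-0.29 ± 0.11) and Tyms (-0.63 ± 0.08) went the other way. Against SEC the hepatocyte change differed for 22 members, 19 upward, where 59.6% of all genes were called and 29.5% upward, and Pcna, Tk1 and Tyms were the 3 that went downward. At least 2-fold and upward were 8, against 10.5% of all genes. The macrophage change differed from that in SEC for 14 members, 10 upward, where 33.0% of all genes were called and 15.3% upward. That count was 8 without the second untreated SEC array and 9 without either the second untreated macrophage array or the first DEN SEC array. Within it Cenpa (0.70 ± 0.10) and Birc5 (0.62 ± 0.11) led upward and Tk1 (-1.01 ± 0.16) and Ccnd1 (-0.60 ± 0.09) downward. Tk1 was the 1 member past 2-fold downward, against 4.01% of all genes.

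Other genes of the pathway were followed as 4 lists outside the members. In hepatocytes 7 of 24 tested genes of the list of other replication genes rose and 4 fell, 45.8% called against 67.6% of all genes. Rpa2, a subunit of the single-strand binding protein, was at least 14.4-fold higher on the probe used. Pold1, the catalytic subunit of polymerase delta, rose by 1.80 ± 0.06 and Lig1, the replicative ligase, by 1.21 ± 0.07. Mcm10, an origin firing factor, changed by -3.05 ± 0.13. Of 29 other mitotic genes 9 rose and 4 fell, 44.8% called against the same 67.6%. Spc24, a kinetochore subunit, changed by 3.00 ± 0.09, Prc1, a midzone bundling protein, by 1.14 ± 0.07, and Hmgb2, a chromatin protein, by 1.13 ± 0.12. Kif23, a cytokinesis motor, changed by -1.21 ± 0.09. Probes of Rpa2, Spc24 and Kif23 were called in opposite directions.

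Of 12 tested inhibitors in hepatocytes limma called 6 higher and none lower (0 lower also at an unadjusted p under 0.05), so 50% were called, against 67.6% of all genes. Among the 13 listed, 7 were below background on both untreated arrays and had little room to fall. Wee1, which was not tested, is among these 7. Cdkn1c, a CIP/KIP inhibitor, rose by 1.81 ± 0.08 and Cdkn2b, an INK4 inhibitor, was at least 2.25-fold higher. Btg1, an antiproliferative factor, rose by 0.82 ± 0.07, and Rb1, the retinoblastoma protein, changed by 0.50 ± 0.09 on a probe that another of its probes opposed. Of 12 E2F and MYB regulators 2 rose and 4 fell, also 50% called. E2f2, an activator, rose by 1.25 ± 0.09 and E2f7, a repressor, was at least 1.42-fold higher. E2f6, another repressor, changed by -0.66 ± 0.05 and Lin54, the DREAM subunit that binds CHR words, by -0.33 ± 0.08, both with a probe called the other way.

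In macrophages, where 42.9% of all genes were called, the called shares were 25% of the other replication genes, 31% of the other mitotic genes, 33.3% of the inhibitors and 25% of the E2F and MYB regulators. Of the other replication genes 5 of 24 rose and 1 fell, with Pold1 at 0.86 ± 0.06, Rpa2 at 0.61 ± 0.09, the S-phase kinase Cdc7 at 0.59 ± 0.05 and the licensing factor Cdt1 at 0.51 ± 0.07. Of the other mitotic genes 8 of 29 rose and 1 fell. Hmgb2 rose by 0.96 ± 0.12, the condensin subunit gene Ncapd2 by 0.52 ± 0.07, Spc24 by 0.47 ± 0.09 and the microtubule regulator Stmn1 by 0.46 ± 0.09. Of the inhibitors limma called 4 of 12 higher and none lower, or 5 and 1 at an unadjusted p under 0.05. Cdkn1a, the inhibitor induced by the tumour suppressor Trp53, rose by 1.66 ± 0.06, Cdkn2d, an INK4 inhibitor, by 0.95 ± 0.11, Btg1 by 0.78 ± 0.07 and Rb1 by 0.28 ± 0.09. E2f2 rose by 1.16 ± 0.09 and E2f3, another activator, by 0.20 ± 0.05, while E2f6 changed by -0.15 ± 0.05. In SEC limma called no gene of the 4 lists, with 5 higher and 4 lower at an unadjusted p under 0.05, and their medians were between -0.06 and -0.02.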

How the data were processed

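Values were read from the table deposited by the authors, which holds log2 values. Per the submitters' processing notes lumi was used, and its transform and version are not stated in the sources at hand. All 12 arrays share a minimum of 7.19, a median of 7.41 and a maximum of 15.19, so they had been scaled to one another. Whether background had been subtracted is not known, and the floor near the minimum limits the changes of dim probes. A deposited non-normalized table has 24 columns (12 of signals) whose names match no sample, and it was not used, so the planned fallback on the deposited values served.

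A probe was above background on an array above the 95th percentile of 1506 olfactory and vomeronasal receptor probes, and was kept if above it on both arrays of at least 1 group (24185 of 45281 probes). Of all probes 34885 had 1 gene symbol, 18 several and 10378 none; 34807 were named through an Entrez ID in a GRCm38.p6 gene table. Each gene was represented by its brightest kept probe. limma 3.58.1 in R 4.3.3 fitted 6 group means (lmFit, eBayes, 6 residual degrees of freedom), two-sided, adjusted by Benjamini-Hochberg over 12473 genes. On simulated data of the hepatocyte comparison, over 12473 genes, 92% of rises and 78% of falls of 0.5 log2 were recovered and 100% of those of 1. "At least" folds use the background threshold for a group below it on both arrays. Summed marker levels are sums of 2 to the power of the level. Figures used matplotlib 3.10.9 in Python 3.11.15.

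The members, the pathway and marker lists and the tests were chosen with earlier results of these data known. Values per array are given for a preset group of members and the 3 widest passing rises and falls per cell type, and for each pathway list up to 4 passing genes with the widest change. The alternatives were a replicate block, background subtraction, cyclic loess, no filter and a stricter one, the mean of all probes, an intensity trend, a fit on the compared arrays alone and leaving out each array. The number of arrays limits the precision.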

Additional observations from a re-analysis of the deposited data

Results flagged for a closer look

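The DEN change of 20 members differed between hepatocytes and macrophages by limma's interaction test, and 5 of these differences were at least 2-fold. They were those of Ccnd1 (3.67), Ccnd2 (1.86), Uhrf1 (1.77), Mcm6 (1.47) and Nusap1 (1.36), each larger in hepatocytes, in log2 units. Between hepatocytes and SEC 22 members differed. Of these 8 were at least 2-fold apart: Ccnd1 (3.07), Ccnd2 (2.20), Uhrf1 (2.04), Nusap1 (1.89), Mcm6 (1.46), Cenpa (1.45), Mcm4 (1.22) and Mcm5 (1.18). Between macrophages and SEC 14 members differed, or 8 without the second untreated SEC array and 9 without the second untreated macrophage array or the first DEN SEC array. Tk1 (-1.01), which fell in macrophages and lay at the same level in both SEC groups, was the one past 2-fold. Both hepatocyte comparisons use the same untreated and DEN hepatocyte arrays, so their lists of genes are not independent. The marker sums given with each cell type moved alongside.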

How the results depend on the processing

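Of the calls after DEN, 17 of 25 in hepatocytes, 10 of 16 in macrophages and 0 of 1 in SEC held in every setting, and 20, 10 and 1 held without each array in turn. Leaving out 1 array gave 22 to 24 called members in hepatocytes, 11 to 14 in macrophages, 1 in SEC, 15 to 22 and 18 to 24 for the differences of hepatocytes from macrophages and SEC, 8 to 12 for macrophages against SEC, and 28 to 30, 24 to 26 and 11 to 14 for the untreated pairs (hepatocytes with macrophages, hepatocytes with SEC, macrophages with SEC). In SEC the count was 0 with the mean of all probes, and 2 in a fit on the SEC arrays alone, which added Ccnd1. The median of the replication members minus that of the mitotic members was, in hepatocytes, -1.11 with background subtraction, -0.27 without the filter, -0.25 with the mean of all probes and -0.51 to -0.26 without 1 array. In macrophages it was -0.48, -0.11, -0.12 and -0.21 to -0.12 in the same order, and in SEC 0.17 with background subtraction. In hepatocytes Ccnd3 turned to -0.05 with the mean of all probes and Rrm2 to 0.06 with background subtraction; for Ccnd3 a probe that fell enters that mean, and for Rrm2 the cause was not tested. The call of Cdk4 in hepatocytes was also lost with background subtraction, cyclic loess, no filter and the fit on the compared arrays, and that of Mcm5, Uhrf1 and Plk1 in macrophages with background subtraction. In SEC the share of higher genes among all called genes went from 72.0% to 83.1% with background subtraction and with cyclic loess, and Mcm6 was the member called in both.

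No pairing of the samples by the replicate numbers of the labels was detected. Over 15 pairs of groups the correlation of replicate differences ran from -0.06 to 0.08, and arrays correlated better with their own number in 1 of 6 groups. With 2 arrays per group, this cannot exclude that equal numbers share animals or pools. With the replicate block 24, 17 and 1 members were called after DEN in hepatocytes, macrophages and SEC, 20, 22 and 14 for the interactions and 31, 26 and 16 between untreated cell types. Signals near background limit the changes of Rrm2, Gmnn, Cdk1, Top2a and the low mitotic genes, and 2 arrays per group limit the rest.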

Other observations

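Among the pathway genes with at least 2 probes above background, probes were called in opposite directions for 7 of 29 genes in hepatocytes, 1 of 29 in macrophages and 0 of 29 in SEC. The used probe of Kif23 read 11.02 and 11.08 in untreated and 9.70 and 9.97 in DEN hepatocytes, while another probe read 7.45 and 7.45 untreated and 9.59 and 9.60 after DEN. The used probe of Spc24 rose by 3.00 and its other probe changed by -0.81. For Rpa2 the used probe read 7.40 and 7.46 untreated and 11.46 and 11.25 after DEN, and the 2 others changed by -0.07 and -0.41. For Mcm10 both kept probes fell, by -3.05 and -2.27, from levels seen in untreated hepatocytes alone among the 6 groups. Which transcript each probe reads was not tested. Among the called members with other kept probes, 2 of 17 in hepatocytes, Ccnd3 and Cdk2, and 0 of 9 in macrophages had a probe called the other way. At least 1 other probe was called the same way for 9 of the 17 and 5 of the 9. All other kept probes were called the same way for 5 and 1 members, so many calls rest on the probe used.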
